A study of Mus musculus with 6 samples.

Results

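SP1 sites that lie close together on the chromosome were examined for whether neighbours change together when mouse embryonic stem cells are compared with neural progenitor cells. Sites listed in the authors' deposited table were sorted by position, and sites whose starts lay less than 2000 bp apart were joined. The 2018 sites in clusters of 2 or more are described here, out of 9001 listed sites, and the other 6983 had no neighbour within that distance. The choice used positions alone and no measured value. Joining gave 942 clusters, of which 817 held 2 sites, 116 held 3 and 9 held 4.

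ATAC-seq was done on R1 mESC (here ESC), a pluripotent mouse line, and on NPC, neural progenitors that also carry the strain label R1, with 3 libraries of each. Both groups were tagmented as nuclei from frozen cells, and the labels name no treatment, allele or transgene in either. R1 is 1 cell line, and nothing in the labels ties a library to a culture of its own, so the deposited p-values reflect only library-to-library spread, which may be technical. For each 500 bp site, the authors' deposited table gives a mean signal (normalized counts, averaged across libraries), a log2 fold change of NPC over ESC with its standard error, and an adjusted p-value. Values per library, and with them the depth of each library, were not analysed here. The listing covers chromosome 1, chromosome 10 and the first part of chromosome 11. In bulk nuclei, a site open in fewer cells and a site less open in each cell cannot be told apart.

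SP1 is a zinc-finger transcription factor present in most cells. It binds GC boxes, short GC-rich elements that often occur in several copies near the starts of genes, and it can act from several sites at once. ATAC-seq counts insertions of the Tn5 transposase, which enters open chromatin. Open stretches at promoters and enhancers are often wider than 1 site, so close neighbours may lie in the same stretch.

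Promoters that overlapped a clustered site often held a GC box. The RefSeq table (GRCm38.p6, which is mm10) holds 2356 promoters of protein-coding genes in the listed regions, each from 250 bases before the start to 50 after it. Of these, 387 overlapped a clustered site and 110 overlapped at least 2 of them. The box was searched as GGGCGG on the given strand and CCGCCC for the other strand, counting overlapping matches. It was present in 71.8% of the promoters with a clustered site, in 64.2% of the 678 with a single site only and in 32.4% of the 1291 with no listed site. Of all 2356 promoters of the listed regions 48.0% held it. In the whole RefSeq table, which was not limited to protein-coding genes, 35.7% of 32851 promoters did. Median GC content was 63.3% with a clustered site, 61.7% with a single site and 52.3% without one. The number of CG pairs per promoter had medians of 23, 21 and 6 in the same order. Boxes were counted over the whole promoter, also where a site covered only part of it. Of the promoters with at least 2 clustered sites, 72.7% held a box and 43.6% held 2 or more. Of those with any clustered site, 71.8% and 46.0% did. A match is a description of the letters and not evidence of binding.

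The 250 bases before the start are printed for 8 genes at whose starts a cluster lay, chosen to show promoters with and without boxes beside the changes described further on. Bases run 5′ to 3′ on the gene's strand, and capitals mark the GC boxes.

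Igsf8, chr1:172312117-172312366, plus strand: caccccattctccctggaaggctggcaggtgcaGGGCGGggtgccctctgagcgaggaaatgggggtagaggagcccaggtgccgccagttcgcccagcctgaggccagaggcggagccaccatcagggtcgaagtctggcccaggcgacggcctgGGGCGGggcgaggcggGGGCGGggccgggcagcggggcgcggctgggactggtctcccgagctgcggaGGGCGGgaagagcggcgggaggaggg
Alyref2, chr1:171503228-171503477, plus strand: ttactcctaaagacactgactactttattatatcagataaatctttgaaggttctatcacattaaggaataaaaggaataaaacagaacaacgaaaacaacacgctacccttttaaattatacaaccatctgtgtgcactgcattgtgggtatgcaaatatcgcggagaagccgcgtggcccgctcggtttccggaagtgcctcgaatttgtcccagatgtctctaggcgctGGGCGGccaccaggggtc
Fzd7, chr1:59481897-59482146, plus strand: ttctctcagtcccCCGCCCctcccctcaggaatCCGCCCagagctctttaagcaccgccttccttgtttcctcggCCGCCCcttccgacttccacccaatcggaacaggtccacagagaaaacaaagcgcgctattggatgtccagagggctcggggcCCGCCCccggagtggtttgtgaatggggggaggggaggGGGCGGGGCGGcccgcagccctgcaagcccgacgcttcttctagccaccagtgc
Map2, chr1:66175079-66175328, plus strand: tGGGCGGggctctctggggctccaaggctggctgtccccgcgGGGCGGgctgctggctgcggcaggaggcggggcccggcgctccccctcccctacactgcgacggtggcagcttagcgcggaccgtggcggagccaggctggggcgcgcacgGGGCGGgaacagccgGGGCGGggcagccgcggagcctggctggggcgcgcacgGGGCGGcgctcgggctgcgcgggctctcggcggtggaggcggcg
F11r, chr1:171437311-171437560, plus strand: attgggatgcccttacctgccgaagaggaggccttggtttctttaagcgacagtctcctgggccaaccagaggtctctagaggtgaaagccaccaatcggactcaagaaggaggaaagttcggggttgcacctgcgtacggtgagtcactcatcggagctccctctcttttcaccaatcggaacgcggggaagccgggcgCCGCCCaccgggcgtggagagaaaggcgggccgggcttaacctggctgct
Kcnj10, chr1:172340960-172341209, plus strand: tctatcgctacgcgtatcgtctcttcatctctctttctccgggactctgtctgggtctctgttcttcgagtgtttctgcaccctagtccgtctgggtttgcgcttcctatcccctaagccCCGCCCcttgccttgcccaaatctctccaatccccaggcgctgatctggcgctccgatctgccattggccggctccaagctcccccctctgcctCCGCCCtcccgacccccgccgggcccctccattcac
Nr5a2, chr1:136953631-136953880, minus strand: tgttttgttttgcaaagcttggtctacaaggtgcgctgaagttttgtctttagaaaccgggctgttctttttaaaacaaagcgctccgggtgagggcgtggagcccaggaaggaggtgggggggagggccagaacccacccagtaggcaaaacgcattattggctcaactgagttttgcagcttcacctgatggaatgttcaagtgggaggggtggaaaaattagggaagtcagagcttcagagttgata
En1, chr1:120602237-120602486, plus strand: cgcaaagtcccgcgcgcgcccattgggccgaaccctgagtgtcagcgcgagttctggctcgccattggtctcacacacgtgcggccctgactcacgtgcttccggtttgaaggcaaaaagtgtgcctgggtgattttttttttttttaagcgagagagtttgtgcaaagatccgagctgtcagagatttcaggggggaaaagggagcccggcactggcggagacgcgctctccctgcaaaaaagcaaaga

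All 250 bases of each of these 8 promoters lay under a clustered site. The stretch before Fzd7 held 6 boxes, that before Map2 held 5 and that before Igsf8 held 4, with GC contents of 65.2%, 81.2% and 74.8%. Kcnj10 had 2 boxes, and F11r and Alyref2 had 1 each. No box was found before Nr5a2 (GC content 49.6%) or En1 (56.0%), which says only that these letters are not in this window.

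Clusters were short and often lay at gene starts. From the start of the first site to the end of the last, a cluster spanned a median of 1209 bp, from 702 to 4224 bp. Of the 1076 pairs of neighbours inside clusters, 425 had starts less than 500 bp apart, so that the sites overlapped, and 651 were separate. No pair was closer than 202 bp. Overlap occurred in 395 clusters (41.9%), among them 306 of the clusters of 2, 81 of the clusters of 3 and 8 of the clusters of 4. Chromosome 1 had 490 clusters, chromosome 10 had 378 and the listed part of chromosome 11 had 74. These held 1051 of 4902 listed sites, 805 of 3595 and 162 of 504.

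A site was placed at a gene start when its midpoint lay within 1000 bp of the start of a protein-coding gene. By this rule 729 of the clustered sites (36.1%) and 794 of the single sites (11.4%) were at a gene start. A further 598 clustered sites lay inside genes and 691 between genes. Every site of 282 clusters was at a gene start, 98 clusters reached from a gene start to a site away from it, and 562 clusters had no site at a start. In 26 clusters the sites lay at the starts of 2 or more genes. For genes whose strand the RefSeq tables used do not give, either end counted as a start, which placed 116 of the 729 clustered sites. The nearest protein-coding gene was within 50000 bp of all but 118 clusters, and 665 genes were nearest to at least 1 cluster. Distances from a cluster to a gene are to the gene's nearest edge, unless its start is named.

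**Figure D1:**
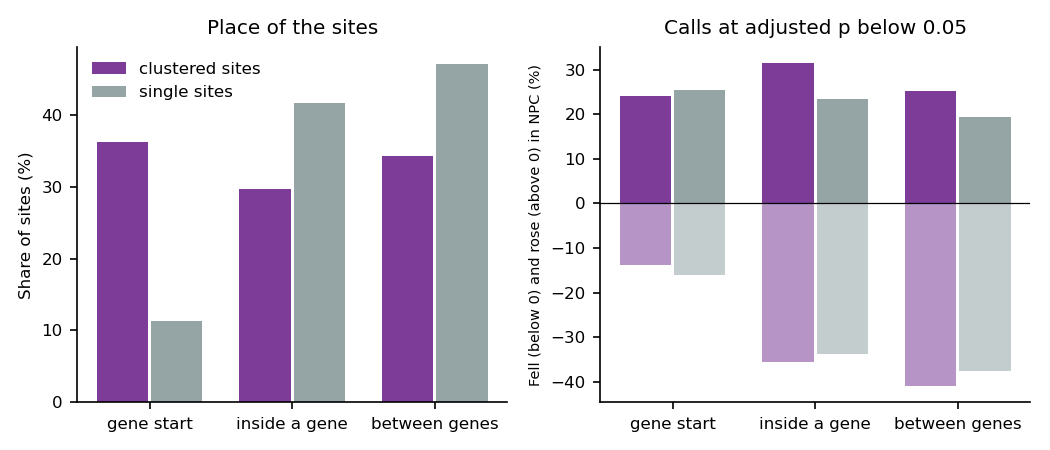
The left panel plots the share of clustered sites and of single sites at gene starts, inside genes and between genes, in percent. The right panel plots, for the same classes, the share that rose in NPC above 0 and the share that fell below 0; 36.1% of clustered sites and 11.4% of single sites were at gene starts, where falls were fewest in both.

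Clustered sites carried more signal than single ones. Mean signal in the authors' deposited table had a median of 10.02 at clustered sites (quartiles 5.46 and 18.8) and 5.03 at single sites (3.11 and 9.37). Between genes the medians were 7.34 and 4.39, and inside genes 6.996 and 4.69. At gene starts they were close, 18.3 for clustered and 19.4 for single sites. The standard error of the log2 fold change followed the signal, with a median of 0.62 at clustered and 0.98 at single sites. How far overlapping windows share the same fragments was not tested.

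Taken over all places, clustered sites were called about as often as all listed sites, but by place the shares differed. At an adjusted p below 0.05 in the authors' deposited table, 1133 of 2018 clustered sites were called (56.1%), against 55.4% of all listed sites. Of the clustered sites 537 rose (26.6%, against 22.8% of all listed sites) and 596 fell (29.5%, against 32.6%). Their median log2 fold change was -0.007, and that of all listed sites was -0.29. With fold changes centred on the median of all sites and p-values recomputed, the order of the directions turned: 29.6% of clustered sites rose and 22.9% fell, against 23.1% and 22.8% of all sites. The deposited p-values do not follow from the deposited fold change over its standard error, so a printed ± SE does not by itself give the call. With p-values recomputed as fold change over standard error and adjusted again, without centring, 48.6% of clustered sites were called. The matching share of all listed sites was not computed. No test of the differences between classes was made, since sites are not replicates.

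At gene starts 37.9% of clustered and 41.6% of single sites were called, inside genes 66.9% and 57.1%, and between genes 66.1% and 56.7%. At gene starts 24.0% of clustered sites rose and 13.9% fell, beside 25.4% and 16.1% of single sites there. Inside genes, 31.4% of clustered sites rose and 35.5% fell, where single sites had 23.4% and 33.7%. Between genes the shares were 25.2% and 41.0% for clustered sites and 19.3% and 37.5% for single sites. Called rises at gene starts were small, with a median of 1.13 on the log2 scale (2.19-fold) over clustered sites, against 3.27 inside genes and 3.16 between them. Called falls had medians of -1.93 at gene starts, -3.10 inside genes and -3.65 between genes. The median standard error of clustered sites was 0.37 at gene starts, 0.82 inside genes and 0.85 between genes, so smaller changes could be called at gene starts. At single sites it was 0.37, 1.02 and 1.05, so away from gene starts smaller changes could be called at clustered sites. How far these differences set the medians of called sites, or the shares called at clustered and single sites, was not tested.

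Where both neighbours of a cluster were called, they mostly moved the same way, and this agreement was lower at larger distances. Among the 418 pairs inside clusters with both sites called, 366 moved the same way (87.6%, 95% Wilson interval 84.0 to 90.4): 170 pairs rose together and 196 fell together. The interval covers counting error over pairs only. For overlapping pairs the share was 99.5% (186 of 187). For separate pairs it was 77.9% (180 of 231, 72.1 to 82.8). Over all 1076 pairs, called or not, the log2 fold changes had the same sign in 742 (69.0%). That share was 81.4% for overlapping pairs, 60.8% for separate pairs and 50.4% from 1500 to under 2000 bp, beside 55.4% of neighbours beyond the joining limit.

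Among pairs with both sites called, most of the drop lay between 500 and 1500 bp. Over all pairs, called or not, much of it lay among overlapping windows. There the same-sign share was 91.1% below 300 bp and 71.2% from 400 to under 500 bp. It was 67.1% from 500 to under 750 bp and 58.6% from 1000 to under 1500 bp. The counts that follow are of pairs with both sites called. At starts from 500 to under 750 bp apart, where the windows share no base, 67 of 70 pairs moved the same way (95.7%, 95% Wilson interval 88.1 to 98.5). From 750 to under 1000 bp the count was 35 of 44 (79.5%, 65.5 to 88.8), and from 1000 to under 1500 bp it was 42 of 62 (67.7%, 55.4 to 78.0). Just inside the joining limit, from 1500 to under 2000 bp, 36 of 55 pairs agreed (65.5%, 52.3 to 76.6). Just outside it, from 2000 to under 3000 bp, the count was 55 of 93 (59.1%, 49.0 to 68.6). Neighbours more than 2000 bp apart agreed at 1482 of 2443 pairs (60.7%, 58.7 to 62.6), and the intervals of the 2 widest distance classes inside clusters overlap this one. These farther pairs include those from a cluster's outermost site to the next site along.

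The size of the change showed the same course. The median difference in log2 fold change between neighbours was 0.33 below 300 bp, 0.73 from 400 to under 500 bp, 0.95 from 500 to under 750 bp, 1.63 from 750 to under 1000 bp and 2.48 from 1500 to under 2000 bp. It was 2.76 from 2000 to under 3000 bp and 2.33 over all neighbours farther apart than the joining limit. Place changed with distance: both sites were at a gene start in 202 of 425 overlapping pairs but in 22 of 315 pairs of 1000 bp or more inside clusters. With neither at a start the median difference was 0.54 for overlapping pairs, 1.62 for separate pairs under 1000 bp, 2.47 from 1000 bp and 2.43 from 2000 bp. With both at a start it was 0.34, 0.69, 1.46 and 0.74. Across pairs, the Spearman correlation of the 2 log2 fold changes was 0.86 over 425 overlapping pairs, 0.56 over 336 separate pairs under 1000 bp and 0.21 over 315 pairs of 1000 bp or more. Over the 7922 neighbours outside clusters it was 0.13. These are descriptions across sites that share all libraries, the authors' fit and, where windows overlap, reads. Mean signal was correlated too, with Spearman values of 0.79, 0.62 and 0.59 in the same classes of clustered pairs.

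**Figure D2:**
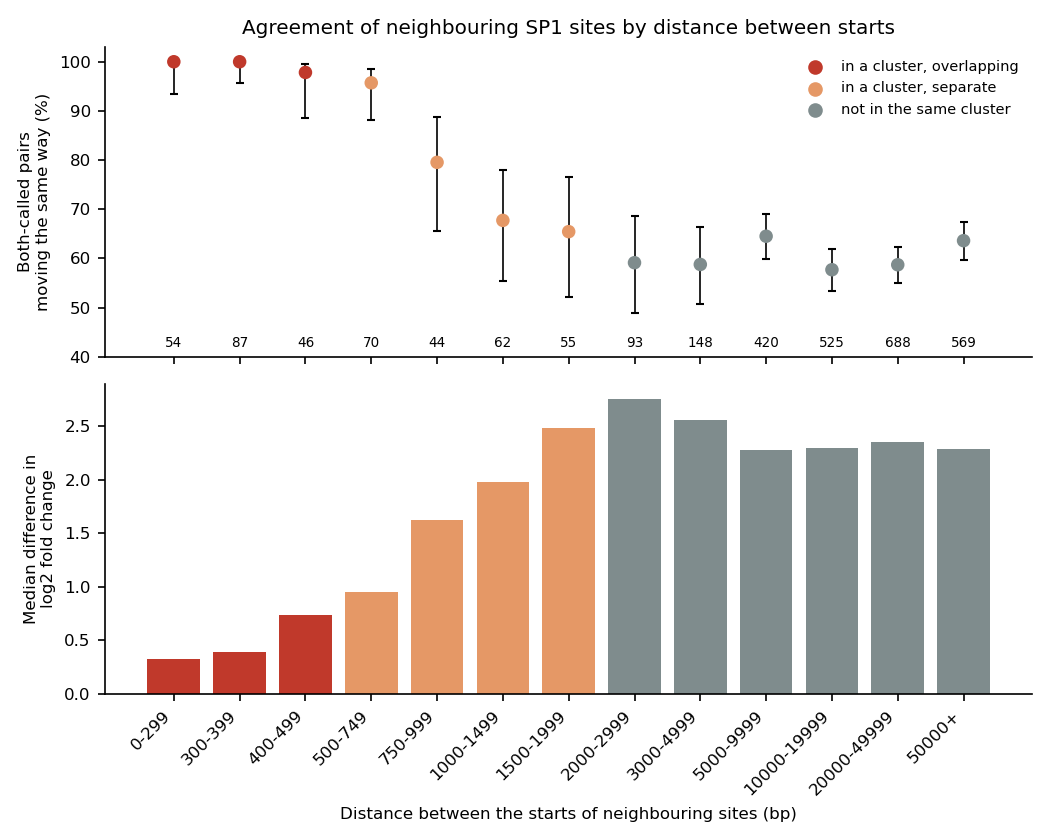
The upper panel plots the share of neighbouring pairs, both called, that moved the same way (percent, with 95% Wilson intervals) against the distance between their starts in bp; the number under each point counts the pairs. The lower panel plots the median difference in log2 fold change, with all places pooled. It climbs from 0.33 below 300 bp to 2.76 from 2000 to under 3000 bp, while agreement drops from 100% to 59.1%.

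**Figure D3:**
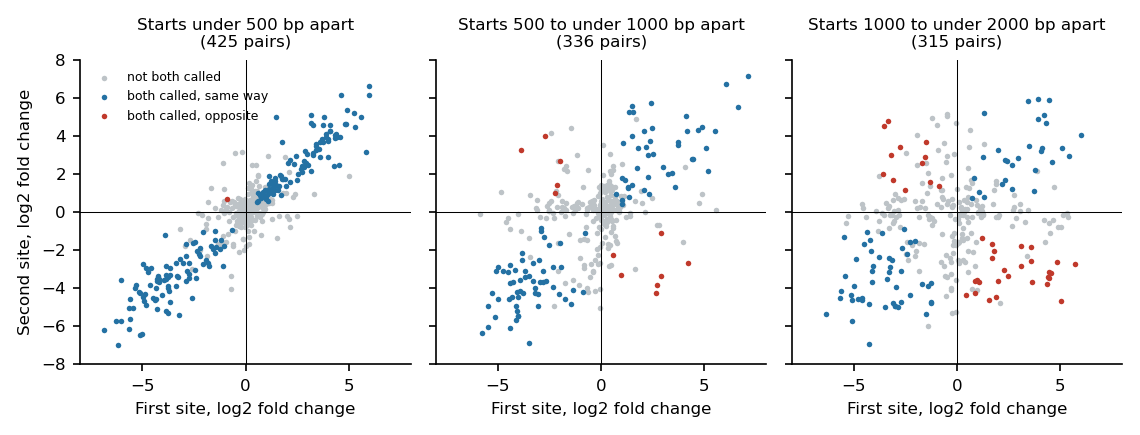
Each point is a pair of neighbours in a cluster, with the log2 fold change (NPC over ESC) of the first site on the x axis and of the second on the y axis, in panels by the distance between starts. Opposite calls, in red, number 1 of 187 called pairs under 500 bp, 12 of 114 from 500 to under 1000 bp and 39 of 117 from 1000 to under 2000 bp.

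Agreement was seen away from gene starts too, but overlapping windows made up much of it in both places. With both sites at a gene start, 63 of 66 called pairs moved the same way (95.5%), and with neither at a start 279 of 317 did (88.0%). Of the 66, 45 overlapped (44 agreed), and of the 317, 140 overlapped (all agreed). Separate pairs with neither site at a start agreed at 139 of 177 (78.5%), and at 57 of 85 (67.1%) when 1000 bp or more apart. Such neighbours 2000 to under 10000 bp apart agreed at 339 of 525 (64.6%). With both sites at a start the counts were small. They were 19 of 21 for separate pairs, 9 of 9 from 2000 to under 10000 bp and 19 of 26 at 2000 bp or more. With 1 site at a start and 1 away from it the count inside clusters was 24 of 35 (68.6%, 95% Wilson interval 52.0 to 81.4). Of all 101 such pairs, called or not, 79 were 1000 bp or more apart. Neighbours of this kind 2000 to under 10000 bp apart agreed at 65 of 127 (51.2%). In the 93 such pairs that did not overlap, the site at the start rose in 36 and fell in 15. The site away from it rose in 26 and fell in 30. Beside these counts, 22.8% of all listed sites rose and 32.6% fell. Of clustered sites at gene starts, 24.0% rose and 13.9% fell. Of those inside genes 31.4% rose and 35.5% fell, and of those between genes 25.2% and 41.0%. The site away from the start had the lower log2 fold change in 59 of the 93, with medians of 0.04 away and 0.32 at the start. It carried less signal as well, with a median of 12.4 against 20.4.

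Counted by cluster, 136 of 942 rose at every site, 176 fell at every site, and 238 had no called site. A further 170 held rises beside uncalled sites, and 165 held falls beside uncalled sites. Clusters with a rise and a fall together numbered 57 (6.05%), 56 of them with the opposed sites clear of each other. These mixed clusters were 37 of 817 with 2 sites, 16 of 116 with 3 and 4 of 9 with 4. Clusters lying wholly at gene starts had no call in 134 of 282 cases, and 26 of them rose and 19 fell throughout.

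The clusters with the most sites showed both kinds of behaviour. Of the 9 clusters of 4 sites, 6 are described, chosen by the smallest adjusted p. The cluster on chromosome 1 from 16104179 to 16106072 covers an end each of Rpl7, a ribosomal protein gene, and Rdh10, a retinol dehydrogenase gene of retinoic acid synthesis. All 4 of its sites rose in the authors' deposited table, by 0.96 ± 0.37 (SE) and 1.14 ± 0.29 on the Rpl7 side and by 1.69 ± 0.34 and 1.88 ± 0.46 on the Rdh10 side, log2 scale. Slco5a1, a member of a family of organic anion transporters, had a cluster that divided. The 2 sites at an end of the gene (492 and 61 bp from it) rose by 1.57 ± 0.52 and 1.14 ± 0.39, and the 2 sites farther inside the gene had -2.77 ± 0.57 and -1.29 ± 0.42 in the authors' deposited table. All 4 were called, with adjusted p-values from 9.41e-06 to 0.00399.

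At Igsf8, whose membrane protein belongs to the immunoglobulin superfamily, 1 of 4 sites changed. The site 777 bp from the start fell, with -4.01 ± 0.65 (adjusted p = 1.52e-08) in the authors' deposited table. Its neighbour over the start, 77 bp from it and on the promoter with 4 boxes, had -0.10 ± 0.29, and the outer sites had 0.72 ± 0.45 and -0.26 ± 0.28 in the authors' deposited table. Alyref2, of an mRNA export protein family, had alternating values. In the authors' deposited table the sites at 925 and 34 bp from its start rose by 1.37 ± 0.30 and 0.70 ± 0.25, while those at 1728 and 394 bp, with 0.13 ± 0.29 and -0.03 ± 0.26, were not called.

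Near Mreg, the melanoregulin gene of melanosome transport, a cluster 13618 bp away had -1.16 ± 0.46, 0.46 ± 0.27, 2.01 ± 0.45 and -3.65 ± 0.67 along the chromosome in the authors' deposited table, the second not called. The cluster 39332 bp from Reep3, a gene of endoplasmic reticulum shaping, had an overlapping pair that, by the authors' deposited table, rose by 3.26 ± 1.36 and 3.09 ± 1.38. Farther along, 2 sites of the same cluster fell, with -2.85 ± 0.62 and -4.98 ± 1.16 in the authors' deposited table. The rises there rest on mean signals of 2.99 and 2.85, low beside 11.1 and 9.47 at the falls in the authors' deposited table.

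**Figure D4:**
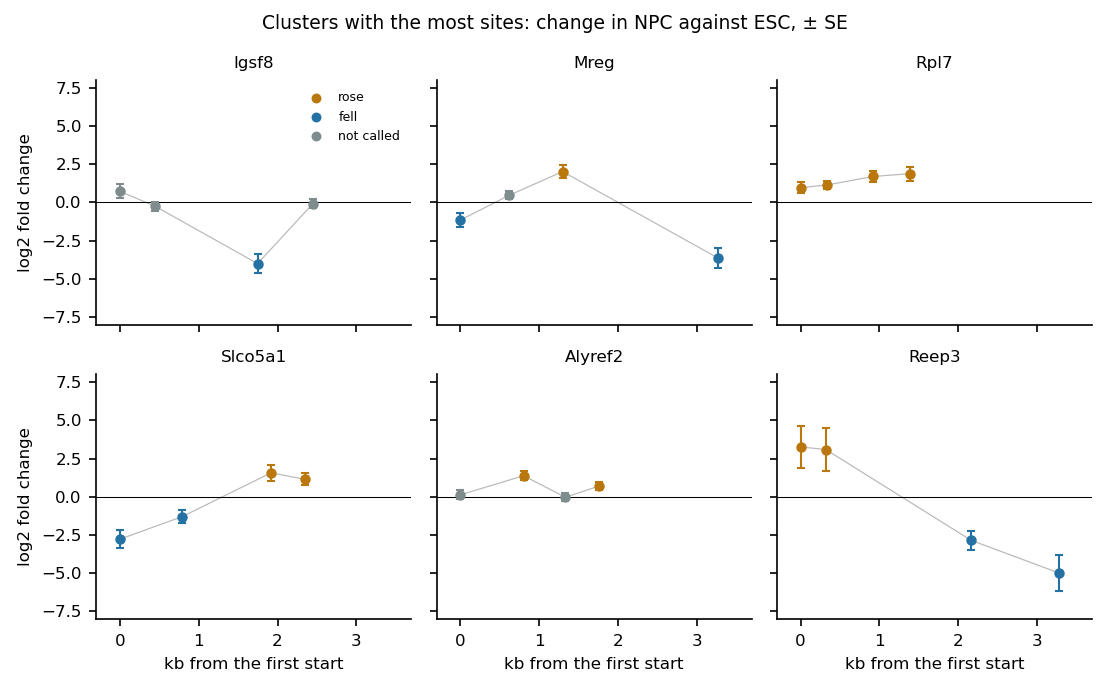
Each panel is 1 of 6 clusters of 4 sites, named by the nearest gene, with the distance from the first site's start (kb) on the x axis and the log2 fold change of NPC over ESC ± SE on the y axis. Colours give the call; the Rpl7 cluster rose at all 4 sites, and those of Mreg, Slco5a1 and Reep3 held rises and falls.

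Clusters that opened in NPC at every site are described by the 8 with the largest least change among those with every site at or above the median signal. None of the 8 had a site at a gene start. The first lay on chromosome 11 from 18580926 to 18581928, with no protein-coding gene within 50000 bp, and its 2 neighbouring windows rose by 7.13 ± 1.13 and 7.14 ± 1.13 in the authors' deposited table. At 12807 bp from Arhgef4, neighbours 873 bp apart rose by 6.06 ± 1.15 and 6.73 ± 1.13 in the authors' deposited table. At 35328 bp from Ecrg4, which encodes the secreted peptide precursor augurin, overlapping sites had 5.99 ± 0.98 and 6.15 ± 1.12 in the authors' deposited table.

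Inside Srgap1, a gene of the Slit-Robo pathway of axon guidance, 3 sites within 1295 bp rose by 5.96 ± 1.15, 6.62 ± 1.14 and 5.51 ± 0.99 in the authors' deposited table. Sites inside Ramp1, a co-receptor gene of calcitonin-type receptors, had 5.26 ± 1.14 and 5.22 ± 0.99, and those inside Tmcc3 had 4.90 ± 1.00 and 5.36 ± 0.99 in the authors' deposited table. Dbi, the gene of the acyl-CoA binding protein also called diazepam binding inhibitor, held a pair with 4.86 ± 0.68 and 4.62 ± 0.68 (adjusted p of 4.22e-11 and 5.38e-10 in the authors' deposited table). The last, on chromosome 10 from 91719551 to 91720507 and far from any gene, rose by 4.62 ± 0.86 and 6.16 ± 1.12 in the authors' deposited table. Within these 8 clusters, sites differed by 0.02 to 1.54 on the log2 scale. Each site rose by at least 4.62, a floor that follows from the choice by least change. Windows overlapped in all of these clusters but the first and that near Arhgef4. How far shared reads bring such values together was not tested.

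Clusters that closed at every site, chosen by the mirrored rule, had only Fzd5 with its sites inside a gene. Of the 8, 3 had no gene within 50000 bp. The first lay on chromosome 1 from 154080605 to 154081414 and fell, with -6.16 ± 1.13 and -6.99 ± 1.13 in the authors' deposited table. Another on chromosome 1, from 117457720 to 117459600, had 3 falls, -6.29 ± 1.14, -5.76 ± 1.14 and -6.39 ± 1.15 in the authors' deposited table. At 26902 bp from Slc35f5, a solute carrier gene, the overlapping sites fell by the authors' deposited table, with -6.05 ± 1.14 and -5.72 ± 1.14. The third cluster without a gene, on chromosome 1 from 9469455 to 9470410, fell by the authors' deposited table, with -5.63 ± 1.35 and -6.15 ± 1.15.

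Other falls of this kind lay 13459 bp from Gm3213 (-5.60 ± 1.17 and -5.65 ± 1.17) and 48256 bp from Eea1, an endosome tethering gene (-5.51 ± 1.17 and -6.07 ± 1.13), in the authors' deposited table. At 43146 bp from Tmem131, a transmembrane protein gene, sites 1211 bp apart fell by the authors' deposited table, with -6.35 ± 1.14 and -5.36 ± 1.15. The 2 sites inside Fzd5, which codes for a Wnt receptor, lay 855 bp apart, with -5.15 ± 1.15 and -5.54 ± 1.14 in the authors' deposited table. Every site of these 8 clusters had a standard error above 1, so their order among each other is not settled.

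Opposed changes inside a cluster were large at some genes. At F11r, which encodes the tight junction protein JAM-A, a fall stood 92 bp from the start, with -4.66 ± 0.56 (adjusted p = 1.33e-14) by the authors' deposited table. Upstream by 1919 bp, a site rose, with 5.04 ± 1.20 and 4.75e-05 in the authors' deposited table. Mean signal there was 35.9 at the fall and 5.43 at the rise, the latter below the median of all sites (5.78). The fall and the rise differ by 9.70 on the log2 scale, the widest gap among clusters opposed in separate sites. Kcnj10, the gene of a potassium channel of glia, showed the same arrangement in the other order. Its start site (75 bp) had -3.54 ± 0.67, and a site inside the gene 1750 bp farther on had a rise of 4.53 ± 0.86 in the authors' deposited table. The F11r and Kcnj10 start sites cover promoters printed above.

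Inside Mgat5, a gene of N-glycan branching, neighbours 1025 bp apart had -3.35 ± 0.63 and 4.81 ± 0.58 in the authors' deposited table, with adjusted p-values of 1.48e-06 and 3.47e-14. Mean signal in the authors' deposited table was 13.5 and 34.9 there, above the median of all sites (5.78). Mthfd1l, a mitochondrial folate enzyme gene, had a rise of 4.38 ± 1.28 and a fall with -3.77 ± 0.80 in the authors' deposited table, at mean signals of 3.32 and 10.4. At Adhfe1, a mitochondrial dehydrogenase family gene, a rise of 5.72 ± 1.16 stood 1945 bp from a fall with -2.76 ± 1.23, and a further site had -0.80 ± 0.71, not called, in the authors' deposited table. The mean signal of the Adhfe1 rise was 8.97 and that of the fall 3.24 in the authors' deposited table. Inside Fam135a a rise of 4.46 ± 1.26 and a fall with -3.48 ± 1.52 stood in the authors' deposited table, at mean signals of only 3.65 and 1.98. A cluster without a nearby gene, on chromosome 10 from 35149258 to 35151721, had 3.38 ± 0.73, -2.30 ± 1.32 (not called) and -4.93 ± 1.21 in the authors' deposited table. Mean signal was 10.1 at its rise and 4.82 at its called fall in the authors' deposited table. The Reep3 cluster completes these 8 through its outermost sites, while its opposed neighbours 1845 bp apart had 3.09 ± 1.38 and -2.85 ± 0.62 in the authors' deposited table.

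**Figure D5:**
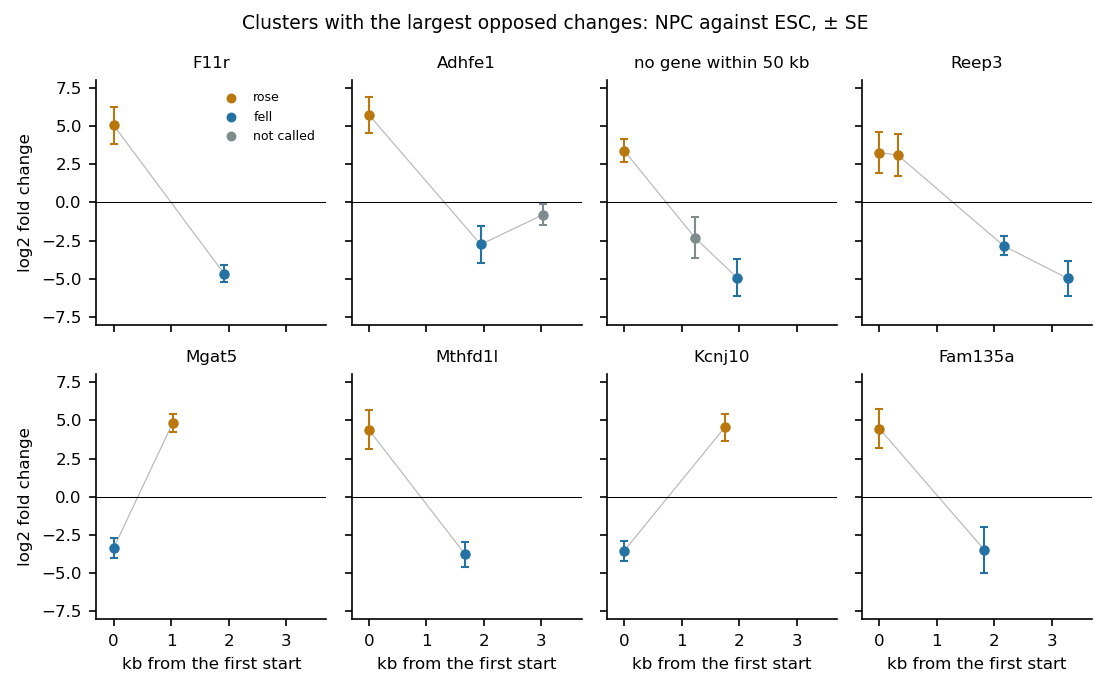
Each panel is a cluster with a called rise and a called fall in sites that do not overlap, named by the nearest gene, with the distance from the first site's start (kb) on the x axis and the log2 fold change of NPC over ESC ± SE on the y axis. At F11r the values run from 5.04 to -4.66 within 1919 bp; the Reep3 panel repeats a cluster of 4 sites.

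Clusters nearest to genes of pluripotency held 8 falls among 14 sites. As the background for this and the following lists, 22.8% of all listed sites rose and 32.6% fell, and overlapping windows count as separate sites. The list of 30 such genes had 9 in the listed regions, 5 of them with 7 clusters, in which 3 sites rose and 3 were not called (median log2 fold change -2.01, against -0.29 over all sites). Tfcp2l1, a naive pluripotency factor gene, had 2 clusters, 1 before the gene with -5.65 ± 1.14 and -5.03 ± 1.00 and 1 inside it with -4.91 ± 1.16 and -4.70 ± 1.01 in the authors' deposited table. The cluster 9284 bp from Prdm14, a regulator of pluripotency and germ cells, fell at both sites by the authors' deposited table, with -2.57 ± 0.82 and -4.50 ± 0.87.

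Nr5a2, a nuclear receptor gene, showed a contrast between its clusters. At the start both sites fell, with -1.45 ± 0.50 and, over the promoter without a box, -4.83 ± 0.75, and deep in the gene a site rose by 5.01 ± 1.20 beside an overlapping neighbour with 1.89 ± 1.41, not called, in the authors' deposited table. The pair 22389 bp from Lif, the cytokine gene of stem cell self-renewal, rose by 2.16 ± 0.82 and 1.58 ± 0.74 in the authors' deposited table. It lay at least 37335 bp from the start of Lif. At the start of Tet1, a methylcytosine oxidase gene, 0.04 ± 0.49 and -0.65 ± 0.44 were not called in the authors' deposited table.

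Neural progenitor genes held rises and no called fall. Of 29 listed genes, 8 lay in the listed regions and 5 had 1 cluster each, with 7 of 11 sites rising, none falling and 4 not called (median 1.63), against 22.8% risen and 32.6% fallen over all listed sites. At 30470 bp from Zbtb18, a transcriptional repressor gene of cortical development, overlapping sites rose by 3.79 ± 0.78 and 5.01 ± 1.15 in the authors' deposited table. The overlapping pair 2256 bp from the homeobox gene Meis1 rose by 1.81 ± 0.33 and 1.73 ± 0.42 in the authors' deposited table. It lay by the far end of the gene, at least 140797 bp from its start.

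At the midbrain and hindbrain homeobox gene En1 the site over the promoter rose by 1.63 ± 0.32, and its neighbour, with 0.56 ± 0.50, was not called in the authors' deposited table. At 10771 bp from Pou3f3, a POU-domain factor gene, 1 of 2 overlapping sites rose (2.39 ± 0.67, the other 0.95 ± 0.65) in the authors' deposited table. Prox1, a homeobox gene of early neurons, had 3 sites at its starts, of which 1 (0.61 ± 0.32, adjusted p = 0.0485) rose by the authors' deposited table, beside 0.19 ± 0.33 and 0.36 ± 0.35, not called.

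Among neuronal genes, clusters of the same gene differed. The list had 5 genes with 10 clusters, in which 5 of 21 sites rose, 8 fell and 8 were not called (median -0.37), a balance near the 22.8% risen and 32.6% fallen over all listed sites. At Map2, the dendritic microtubule protein gene, the site over the start, on the promoter with 5 boxes, had 0.19 ± 0.26 and was not called, while a site 1379 bp before it fell, with -3.33 ± 0.93, in the authors' deposited table. Far inside Map2, both sites of 2 clusters rose, by 2.15 ± 0.74 and 3.41 ± 0.63 and by 3.47 ± 0.49 and 5.86 ± 1.16 in the authors' deposited table. The 4 clusters nearest to Nrp2, a semaphorin receptor gene, held 1 rise, 4.53 ± 1.17, and 4 falls, from -2.41 ± 0.48 to -4.06 ± 1.04, among 9 sites in the authors' deposited table. Of these falls, 2 were in a cluster 24131 bp outside the gene. Inside Syt1, the calcium sensor gene of synaptic vesicles, both sites fell (-1.24 ± 0.44 and -3.71 ± 1.08), and 1 of 2 fell inside Syt2 (-3.14 ± 1.15, the other -0.42 ± 0.62), in the authors' deposited table. Neither site at an end of Syn3 was called (0.28 ± 0.46 and -0.37 ± 0.25 in the authors' deposited table).

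Signalling genes had 13 of 27 sites falling, 5 rising and 9 not called in 13 clusters of 9 genes (median -1.44). Falls outnumbered rises over all listed sites as well (32.6% against 22.8%). Gli2, a hedgehog transcription factor gene, had 4 of them. Inside Gli2, sites 654 bp apart had 2.88 ± 1.00 and -3.36 ± 1.12, and sites 813 bp apart had -2.13 ± 0.57 and 1.42 ± 0.53, so that 2 of the 57 mixed clusters lay in this gene, in the authors' deposited table. Its other clusters fell throughout, with -3.68 ± 0.81 and -3.09 ± 1.17 inside the gene and -3.50 ± 0.67, -6.88 ± 1.13 and -6.22 ± 1.13 at 20649 bp from it, in the authors' deposited table.

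At the Wnt receptor gene Fzd7 the site over the promoter with 6 boxes rose by 0.86 ± 0.27, and its neighbour 535 bp away had -0.14 ± 0.36, not called, in the authors' deposited table. Likewise at Dusp6, an ERK phosphatase gene, the start site rose by 0.57 ± 0.21 while a site 1867 bp before it had -0.41 ± 0.32, not called, in the authors' deposited table. The second cluster of Dusp6, 18405 bp from the gene, had a fall with -4.08 ± 1.22 beside 0.99 ± 1.05, not called, in the authors' deposited table. At the growth factor gene Igf1 the start site fell (-3.75 ± 1.07, its neighbour -1.76 ± 1.41), and 1 site of 2 fell at Igfbp2 (-1.44 ± 0.48, the other 0.25 ± 0.40), a binding protein gene of the same axis, in the authors' deposited table. At Wnt6 a site fell (-1.78 ± 0.81, the other 0.25 ± 0.36), and inside the growth factor gene Tgfb2 a site rose by 2.87 ± 0.54 beside -0.31 ± 0.49 in the authors' deposited table. Neither site at Dusp10 was called (0.41 ± 0.28 and 0.19 ± 0.18 in the authors' deposited table).

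Genes of mesenchymal matrix had 10 of 21 sites falling, 2 rising and 9 not called in 9 clusters of 6 genes (median -1.23), where all listed sites had 32.6% falling and 22.8% rising. All 3 sites of a cluster 29805 bp from Col18a1, a collagen gene, fell, with -3.46 ± 0.92, -4.99 ± 1.16 and -3.88 ± 0.90 in the authors' deposited table. The cluster at its start had -0.0031 ± 0.50 and -0.89 ± 0.67, not called, and 2 inside it each had 1 fall, -4.05 ± 1.05 and -1.61 ± 0.61, beside 0.72 ± 0.55 and 0.76 ± 0.95, in the authors' deposited table. Both sites inside the fibronectin gene Fn1 fell (-4.77 ± 1.23 and -3.12 ± 1.42), as did both at an end of the collagen gene Col5a2 (-2.55 ± 1.27 and -1.71 ± 0.92), in the authors' deposited table. At Timp3, a metalloproteinase inhibitor gene, an overlapping pair rose by 1.66 ± 0.47 and 1.95 ± 0.53 while a site 1549 bp from it fell, with -3.09 ± 0.54, in the authors' deposited table. The clusters of Col3a1 (-0.21 ± 1.11 and 0.69 ± 0.71) and Col6a1 (0.75 ± 0.91, -1.23 ± 0.71 and -0.30 ± 0.55) had no call in the authors' deposited table.

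Markers of other lineages had 1 cluster each where they had any. Inside Sox17, an endoderm factor gene, both sites fell, with -3.91 ± 0.65 and -3.56 ± 0.73 in the authors' deposited table. At Gja1, the connexin 43 gene of astrocytes, the start site rose by 0.74 ± 0.37 and a site 1843 bp farther on had -0.29 ± 0.35, not called, in the authors' deposited table. Klf16, the 1 gene of the SP and KLF family with a cluster, had 1 fall (-1.31 ± 0.59) beside 0.37 ± 0.33 and 0.17 ± 0.38 in the authors' deposited table. None of the 25 cell cycle genes listed, 8 of them in the listed regions, had a cluster. The lists were drawn up with earlier results on these sites known, so their balances are descriptions and not independent evidence.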

How the data were processed

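Per the submitters' processing notes, the reads were handled with BWA 2.1, Picard 2.23.8, SAMtools 1.9, MACS2 2.2.7 and DESeq2 on mm10, with no role or setting given. How SP1 sites were chosen is not given in the sources used here, nor is the counting of fragments over overlapping windows or any Tn5 shift. The authors deposited a mean signal, log2 fold changes with standard errors, and p-values with adjusted p-values, per the file headers. The direction, NPC over ESC, comes from the name of the table.

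From these, sites were joined at 2000 bp, paired with their next neighbour and placed with the RefSeq tables (strand known for 1915 of 2326 protein-coding genes). A site was called at an adjusted p below 0.05. Shares of pairs carry 95% Wilson intervals. No test was run across sites or libraries, and no fit was made anew. Coordinates are as listed, with no statement of a count from 0 or 1. Genome sequence under sites away from promoters was not analysed here. Joining and pair counts were tested on simulated data. Python 3.11.15, pandas 2.3.3 and SciPy 1.17.1 were used.

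Named clusters were the 6 with the most sites, the 8 that rose and the 8 that fell throughout with the largest least change and the 8 with the largest opposed changes, 1 per nearest gene in each class, and every cluster nearest to a listed gene. The members and lists were chosen with earlier results of these data known. The neural progenitor list was shortened by 1 gene, which is not reported here.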

Additional observations from a re-analysis of the deposited data

How the results depend on the processing

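No paired analysis was possible because the table used holds 1 value per site for the whole comparison and none per library, and for the same reason no library could be left out. The main values were 56.1% of clustered sites called, 26.6% risen, 29.5% fallen, a median log2 fold change of -0.007, 87.6% of called pairs in agreement and 57 mixed clusters. Joining at 1000 bp gave 27.6% fallen, a median of 0.079, 95.7% agreement and 16 mixed clusters, and joining at 5000 bp gave 32.4%, -0.095, 77.1% and 157. At 500 bp 30.3% rose and 25.6% fell, with a median of 0.15, 99.5% agreement and 2 mixed clusters. With 1 site kept per overlap group the median was -0.096 and agreement 78.4%. An adjusted p below 0.01 gave 43.8% called, 20.0% risen, 23.7% fallen and 37 mixed clusters. Requiring a log2 change beyond 1 gave 51.0% called and 22.2% risen. Recomputed p-values gave 48.6% called, 22.4% risen and 26.1% fallen. Centring with recomputed p-values gave 52.5% called, 29.6% risen, 22.9% fallen and a median of 0.28. Chosen after seeing the data, leaving out sites at gene starts gave 66.5% called, 38.4% fallen and a median of -0.39, and leaving out overlapping pairs gave 77.9% agreement. Of all listed sites, 58.8% of those inside genes and 58.4% of those between genes were called. For the stricter thresholds and the uncentred recomputed p-values, shares over all listed sites were not computed. Leaving out chromosome 11 (also added later) or the lowest 25% of sites by signal moved none of the 6 values beyond the counting interval or, for the clusters, 1.5 times. Agreement was 88.0% to 88.8% under the stricter thresholds, recomputed p-values, centring and away from gene starts. Beyond the joining distance and the kept overlaps, which set which pairs are counted, the cause of these shifts was not tested. Low counts limit single sites: the median signal over all sites was 5.78.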

Other observations

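Some long genes held several clusters, a selection made after the values were seen. Over all listed sites 22.8% rose and 32.6% fell. Dst, the gene of the cytoskeletal linker dystonin, had 5 clusters with 10 sites, of which 7 fell and 3 rose, with log2 fold changes from -5.70 to 4.31 in the authors' deposited table. Enah, an actin regulator gene, had 4 clusters in which 6 of 9 sites fell and none rose (-4.61 to 0.15 in the authors' deposited table). Grip1, a scaffold gene of glutamate receptors, had 4 of 9 sites rising and 1 falling (-3.09 to 2.96 in the authors' deposited table). The monocarboxylate transporter gene Slc16a7 had 3 rises and 2 falls among 8 sites, Stat4 had 1 rise and 3 falls among 8, and Tns3, a focal adhesion gene, had 2 rises and 4 falls among 8, in the authors' deposited table. No test of these counts was made.

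Several microRNAs had a clustered site nearby, some with called sites, such as a rise of 5.90 ± 1.16 by Mir7662 and a fall with -3.01 ± 0.88 by Mir1981 in the authors' deposited table. From these, let-7i was picked for description. A cluster lay by the hairpin of let-7i, which is known to accumulate as stem cells differentiate. Its adjoining sites, on chromosome 10 from 122985741 to 122986241 and from 122986242 to 122986742, had 0.50 ± 0.32 and -0.46 ± 0.39 (adjusted p = 0.107 and 0.216 in the authors' deposited table) and were not called.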
